A study of Mus musculus with 96 samples.

Results

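Lyve1, Stab2 and Nr2f2 are 3 mouse genes of venous, sinusoidal and lymphatic endothelium. They were taken as the rows of the raw count table that carry these symbols, 3 of 19836 genes, and each had at least 30 reads over all cells, as did 15239 genes in all. They were followed through 96 single C57BL/6 embryonic cells. The study set haematopoietic stem cells (HSCs) beside their precursors (pre-HSCs), with 1 cell sorted into each well and its RNA sequenced. At E11.5, 48 pre-HSCs came from the aorta-gonad-mesonephros (AGM) region and 16 from the yolk sac, and both were sorted as Ter119-CD11b-CD144+c-kit+EPCR+. The fetal liver gave 16 HSCs at E12.5, sorted as Ter119-Sca-1+c-kit+EPCR+, and 16 at E14.5, sorted as Ter119-Sca-1+c-kit+CD48-CD150+. Tissue, age and gate therefore changed together between the E11.5 and liver groups and cannot be told apart. The labels name no genotype, treatment, embryo or litter, so each group was 1 sample, no difference has a replicate check, and no test was made.

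Nr2f2 encodes COUP-TFII, an orphan nuclear receptor that sets venous identity in endothelium by holding down Notch signalling, and that works with PROX1 and SOX18 when lymphatic cells leave the veins. Lyve1 encodes a hyaluronan receptor known as a marker of lymphatic and liver sinusoidal endothelium, also found on yolk sac and venous endothelium and on some tissue macrophages. Stab2 encodes stabilin-2, a large scavenger receptor that clears hyaluronan and other ligands in the sinusoids of liver, spleen and lymph node. HSCs arise from the haemogenic endothelium of arteries, so the 3 genes mark vessel types other than the arterial one.

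Depth was similar in the 4 groups. Single cells held 250235 to 1926882 reads. Pooled over cells, the AGM held 60280645 reads, the yolk sac 22306075, the E12.5 liver 19053123 and the E14.5 liver 20585452. The median AGM cell had 5522.5 genes with a read, the median yolk sac cell 5349.5, and the medians for liver were 4036 (E12.5) and 4839 (E14.5). Cdh5, the gene of the sorted CD144, was read in 45 AGM cells and 7 yolk sac cells. Kit was read in 43 AGM cells, 12 from yolk sac, 12 from E12.5 liver and 14 from E14.5 liver.

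All 3 genes lie on the minus strand of mm10 (GRCm38), by the GENCODE annotation. Lyve1 (ENSMUSG00000030787.4) spans chr7:110850607-110863239, Stab2 (ENSMUSG00000035459.17) spans chr10:86841198-87008025 and Nr2f2 (ENSMUSG00000030551.14) spans chr7:70351944-70366735. Plus-strand annotations overlap Stab2 (Gm16268, Gm16280, Gm16270, Gm16271 and Gm16269) and Nr2f2 (B130024G19Rik), and none is a row of the table analysed here. Whether counting used the strand is not given in the sources used here, so reads from these partners cannot be told apart from those of Stab2 and Nr2f2. No annotated gene overlaps Lyve1.

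RefSeq's promoter table (GRCm38.p6) held 2 of the 3 genes, Stab2 and Nr2f2. Their upstream stretches are shown because these 2 genes shared more cells than any other pair of the 3, and because COUP-TFII binds AGGTCA half-sites, which are in capitals. Each is printed 5′ to 3′ on the gene's own strand, the first from chr7:70366747-70366996 and the second from chr10:87008026-87008192.
Nr2f2: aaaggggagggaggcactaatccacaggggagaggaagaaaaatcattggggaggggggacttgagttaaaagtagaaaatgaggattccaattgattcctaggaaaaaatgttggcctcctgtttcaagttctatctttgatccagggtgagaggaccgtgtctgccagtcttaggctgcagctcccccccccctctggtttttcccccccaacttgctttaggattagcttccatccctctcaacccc
Stab2: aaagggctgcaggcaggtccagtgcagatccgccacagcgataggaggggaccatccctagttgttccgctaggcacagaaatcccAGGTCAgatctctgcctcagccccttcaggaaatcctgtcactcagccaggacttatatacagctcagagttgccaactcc

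In the 250 bases before the RefSeq start, Stab2 held 1 AGGTCA, on its own strand and within the printed stretch. Nr2f2 held 0 on either strand. AGGTCA in either direction was present in 14% of 32851 such windows. The SOX-type letters AACAAT were in neither window and in 9.42% of all windows. The ETS core GGAA matched 6 times in each, and 93.4% of windows held it. The motifs do not overlap one another, both strands were searched, and a match describes letters only.

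Lyve1, the hyaluronan receptor, had reads in 5 of the 96 cells, all at E11.5. In yolk sac, cell 2 held 251 reads (198.1 CPM, the usual scaling of counts to a common library total), cell 1 held 60 reads (31.2 CPM) and cell 6 held 6 reads (3.18 CPM). In AGM, cell 21 held 37 reads (25.2 CPM) and cell 8 held 12 reads (6.79 CPM). Every other cell had 0, so the groups overlap at 0, and only the top 2 yolk sac cells lay above all AGM cells. The yolk sac share of cells with a read was therefore 18.75% (exact Clopper-Pearson 95% interval 4.05 to 45.6%) and the AGM share was 4.17% (0.509 to 14.3%), with overlapping intervals.

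Summed over the cells of a group, Lyve1 came to 14.2 CPM in yolk sac (exact Poisson 95% interval 12.7 to 15.9) and 0.813 CPM in AGM (0.601 to 1.07). The ratio was 17.5-fold (12.9 to 24.1), a log2 ratio of 3.07 after 1 CPM was added to both. Of all genes, 8.61% were at least 2-fold higher in yolk sac than in AGM on that scale. All these intervals cover counting error only, since amplified reads are not independent molecules and embryos are not told apart. Cell 2 held 79.2% of the yolk sac reads and cell 21 held 75.5% of the AGM reads. Without its top cell, each group's level was 3.14 CPM and 0.204 CPM respectively. The log2 ratio was 1.19 without yolk sac cell 2 and 3.66 without AGM cell 21. Lyve1 was thus past 2-fold in yolk sac under every omission of 1 cell, and these 2 omissions moved the ratio the most.

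Such concentration is common in these libraries. Of genes with at least 30 reads in AGM, 22.4% had over 50% of their AGM reads in 1 cell, and the median gene had 22.3% in its top cell. In yolk sac, 26.4% of genes had over 50% in 1 cell, and the median share was 31.7%. Lyve1 stood past 50% in both groups, Stab2 in yolk sac only and Nr2f2 in yolk sac only, where it had 1 read. AGM Lyve1 was read in 2 cells, and yolk sac Stab2 and Nr2f2 in 1 cell each. Their top cells thus held at least 50% by construction. The all-gene shares were not matched on the number of cells with a read.

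Stab2, the scavenger receptor, had reads in 6 cells. The AGM cells were 30 (101 reads, 62.6 CPM), 36 (69 reads, 76.3 CPM), 45 (27 reads, 22.5 CPM), 43 (27 reads, 19.2 CPM) and 21 (25 reads, 17.1 CPM). Yolk sac cell 2 held all 97 yolk sac reads, at 76.6 CPM. The highest cells of the 2 tissues were therefore at nearly the same level, and every other cell was at 0. The share of cells with a read was 10.4% for AGM (3.47 to 22.7%) and 6.25% for yolk sac (0.158 to 30.2%).

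Pooled Stab2 was 4.35 CPM in yolk sac (3.53 to 5.30) and 4.13 CPM in AGM (3.63 to 4.68), a ratio of 1.05-fold with a counting interval of 0.824 to 1.34. The log2 ratio was 0.06, against a median of -0.20 over all genes. This near-equality rested on 1 cell. Without yolk sac cell 2 the yolk sac had 0 reads and the log2 ratio was -2.36. Without AGM cell 30, which held 40.6% of the AGM reads, it was 0.60, and AGM kept 2.52 CPM.

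Nr2f2, the venous transcription factor, was read in more cells and at fewer reads. In AGM, 7 cells held 83 reads. The levels were 27.4 CPM in cell 9 (16 reads), 19.9 in cell 18 (21 reads), 14.4 in cell 36 (13 reads), 8.05 in cell 30 (13 reads), 6.28 in cell 5 (11 reads), 3.70 in cell 25 (7 reads) and 1.36 in cell 21 (2 reads). Yolk sac had a single read, in cell 2 (0.789 CPM). No AGM cell held over 25.3% of the group's reads, so Nr2f2 was the most evenly spread of the 3 in AGM. All AGM cells with a read lay above the yolk sac cell, and the remaining cells of both groups were at 0. For AGM the share of cells with a read was 14.6% (6.07 to 27.8%), and for yolk sac it was 6.25% (0.158 to 30.2%).

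Pooled Nr2f2 was 1.38 CPM in AGM (1.10 to 1.71) and 0.0448 CPM in yolk sac (0.00114 to 0.25). AGM over yolk sac was 30.7-fold, with a counting interval from 5.36 to 1228 because the lower value is 1 read. On the scale with 1 CPM added, the yolk sac over AGM log2 ratio was -1.19, and 21% of all genes were at least 2-fold lower in yolk sac. Leaving out any 1 cell kept this ratio between -1.25 and -0.97.

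**Figure D1:**
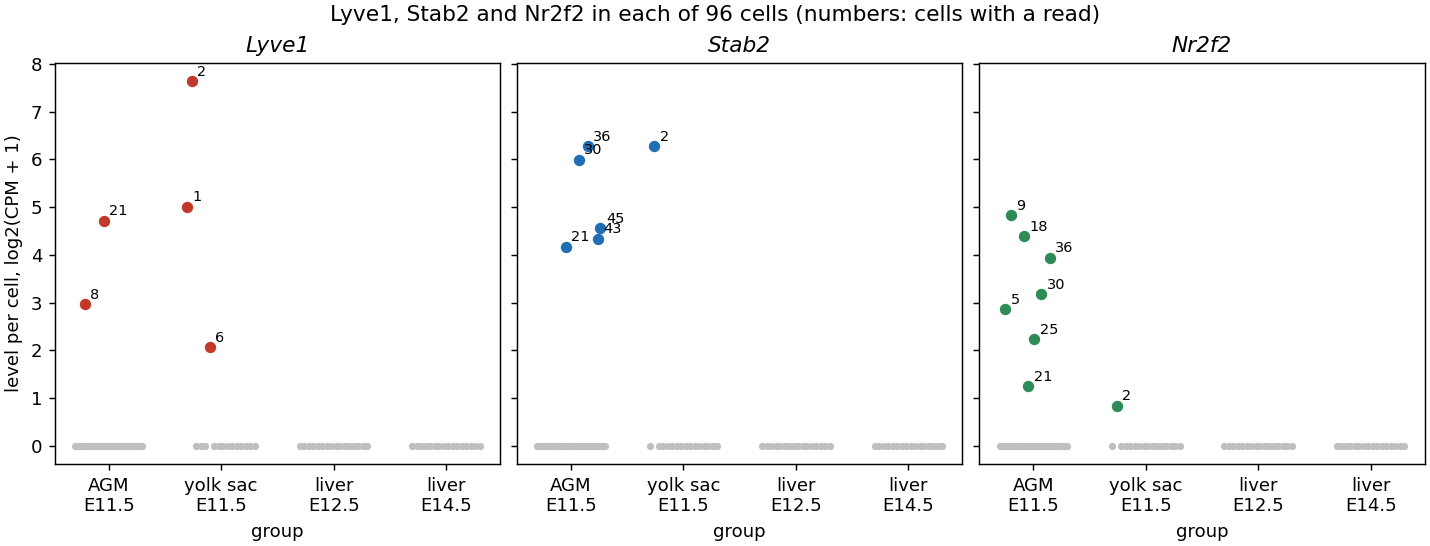
Level of Lyve1, Stab2 and Nr2f2 in each of the 96 cells, as log2 of CPM after 1 CPM was added, by group. Coloured points are cells with a read, with their cell number, and grey points are cells at 0. Yolk sac cell 2 is the highest Lyve1 cell and has a point in all 3 panels, and both liver groups lie at 0 throughout.

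**Figure D2:**
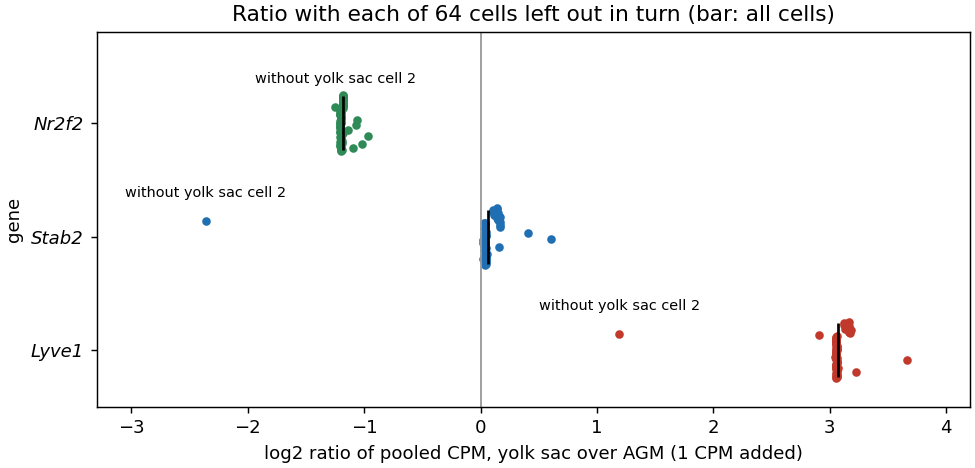
Log2 ratio of pooled CPM, yolk sac over AGM with 1 CPM added, when each of the 64 E11.5 cells was left out in turn (points), beside the value with all cells (bar). Omission of yolk sac cell 2 takes Lyve1 from 3.07 to 1.19 and Stab2 from 0.06 to -2.36, and Nr2f2 stays between -1.25 and -0.97.

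Levels of different genes are compared here per length, as CPM per kilobase of exon. The exons cover 2919 bases for Lyve1, 8757 for Stab2 and 8625 for Nr2f2. In AGM the order was Stab2 at 0.472, Lyve1 at 0.278 and Nr2f2 at 0.160. In yolk sac it was Lyve1 at 4.87, Stab2 at 0.497 and Nr2f2 at 0.00520. With all cells pooled, Lyve1 and Stab2 changed places between the tissues, and Nr2f2 was last in both. The AGM order rested on single cells. Without AGM cell 21, AGM Lyve1 was 0.204 CPM in place of 0.813 CPM, which per length is below Nr2f2. Without AGM cell 30, AGM Stab2 was 2.52 CPM in place of 4.13 CPM. In yolk sac all Stab2 reads were in cell 2.

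Across groups, the order of pooled levels for Lyve1 was yolk sac, AGM and then both livers, with yolk sac and AGM separated beyond counting error. For Stab2, pooled yolk sac and AGM were level within counting error, with both livers below. All yolk sac Stab2 reads were in cell 2, and without that cell yolk sac was at 0, as both livers were. For Nr2f2, AGM was first, and the counting interval of the single yolk sac read reaches the floor of both livers.

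In fetal liver, all 3 genes had 0 reads at E12.5 and 0 at E14.5. A floor of 3 reads over the group corresponds to 0.157 CPM for the earlier liver group and 0.146 CPM for the later. Against the E12.5 floor, pooled AGM reads were at least 5.16-fold higher for Lyve1, at least 26.2-fold for Stab2 and at least 8.74-fold for Nr2f2. Such bounds take reads as independent and do not cover the small number of cells that hold them. Without each gene's top AGM cell these bounds were 1.30-fold for Lyve1 (without cell 21), 16.02-fold for Stab2 (without cell 30) and 6.65-fold for Nr2f2 (without cell 18). After 1 CPM was added, the E12.5 over AGM log2 ratios were -0.86 for Lyve1, -2.36 for Stab2 and -1.25 for Nr2f2. Stab2 and Nr2f2 were thus past 2-fold and Lyve1 was not, where 26% of all genes were at least 2-fold lower in E12.5 liver and 15.6% at least 2-fold higher. The ratio for Stab2 was -1.82 without AGM cell 30, and that for Lyve1 was -0.27 without AGM cell 21. With both livers at 0, E14.5 over E12.5 has no fold.

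The absence from both livers is read against how many genes behaved so. Of all genes tested, 13.7% had no read in either liver group. Among genes with a read in 5 to 8 of the 96 cells, the range of the 3 members, the share was 27%. In shares of cells, a count of 0 of 16 allows up to 18.75% when 3 cells are taken as its limit, and the exact Clopper-Pearson upper end is 20.6%. The AGM shares, 4.17% for Lyve1, 10.4% for Stab2 and 14.6% for Nr2f2, all lie below both limits. The cell counts thus do not set either liver below AGM.

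Cells with a read of Lyve1 or Nr2f2 tended to have more genes detected, which held less for Stab2. Of the 13 cells with a read of at least 1 of the 3 genes, 8 had 7000 or more genes detected, against 16 of all 96 cells. Such cells numbered 10 of 48 in AGM, 5 of 16 in yolk sac, 1 of 16 at E12.5 and 0 of 16 at E14.5. AGM cell 36 had the most genes of its group (11094), and yolk sac cells 1 and 2 the most of theirs (10823 and 10727). By contrast, Stab2 cell 45 had only 3502 genes and cell 43 had 5241. Among cells with at least 7000 genes, the Lyve1 share was 3 of 5 in yolk sac (60%, 14.7 to 94.7%) and 2 of 10 in AGM (20%, 2.52 to 55.6%). For Nr2f2 it was 4 of 10 in AGM (40%, 12.2 to 73.8%) and 1 of 5 in yolk sac, and for Stab2 it was 2 of 10 and 1 of 5. In those cells alone the yolk sac over AGM log2 ratio was 3.23 for Lyve1, 0.84 for Stab2 and -1.49 for Nr2f2. Over all 96 cells the Spearman correlation with genes detected was 0.35 for Lyve1, 0.36 for Nr2f2 and 0.15 for Stab2, and within AGM it was 0.41 for Nr2f2 and 0.06 for Stab2. What part the number of genes detected has in the liver zeros was not tested.

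**Figure D3:**
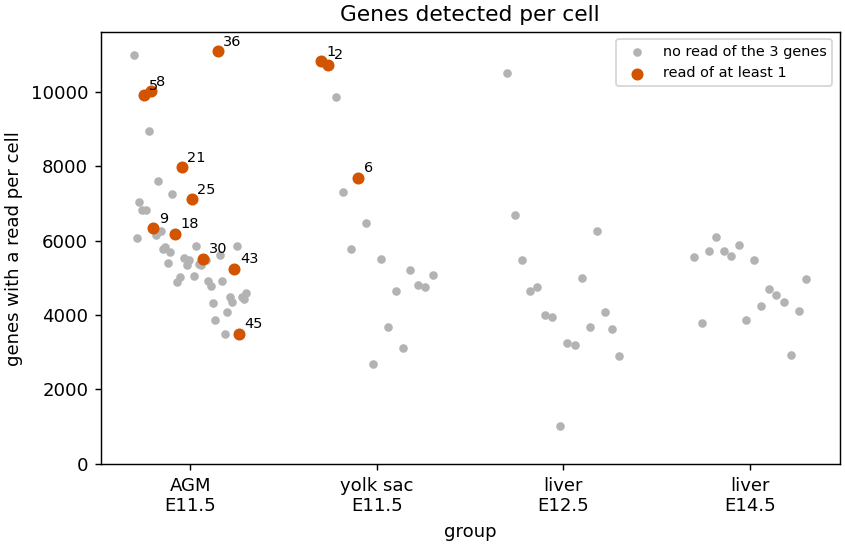
Genes with a read in each cell, by group, with cells that hold a read of Lyve1, Stab2 or Nr2f2 in orange with their cell number. In yolk sac the 3 marked cells have 7686 or more genes, in AGM they run from 3502 to 11094, and the liver groups have none marked.

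The 3 genes shared few cells. Any of them was read in 10 AGM and 3 yolk sac cells and none in the other 83 cells. Stab2 and Nr2f2 were read together in 4 cells (AGM cells 21, 30 and 36 and yolk sac cell 2), with 2 cells of Stab2 alone and 4 of Nr2f2 alone. Lyve1 and Stab2 were together in 2 cells, as were Lyve1 and Nr2f2. The same 2 cells, AGM cell 21 and yolk sac cell 2, carried all 3 genes. Lyve1 without either of the others was read in AGM cell 8 and yolk sac cells 1 and 6.

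Yolk sac cell 2, the cell with most of the Lyve1 and all of the Stab2 reads of its group, had reads for 8 of 10 other venous genes, the most of its group. Their summed level, 807 CPM, was the highest of the 16 cells. It also had 5 of 6 other sinusoidal scavenger genes, where the median yolk sac cell had 0. Among these were Stab1, the paralogue of Stab2 (22.1 CPM), Oit3, a secreted protein of sinusoidal endothelium (25.3 CPM), the fatty acid receptor Cd36 (15.8 CPM) and clotting factor F8 (3.95 CPM). The apelin receptor Aplnr, a venous marker, was at 63.1 CPM and was read in no other yolk sac cell, and the endocytic adaptor Dab2 was at 101 CPM. Only yolk sac cell 1 (10823 genes) had more genes detected than cell 2 (10727). Cell 1 had no Stab2 or Nr2f2 read, but 7 of 10 venous, 8 of 11 lymphatic and 12 of 14 arterial genes. What part the number of genes detected has in the list counts of single cells was not tested.

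The same cell had all 13 pan-endothelial and all 14 haematopoietic list genes. Kit was at 209.1 CPM, Runx1, the factor needed for HSCs to emerge, at 191.8 CPM, Procr (EPCR) at 99.4 CPM and the leukocyte gene Ptprc at 54.5 CPM. It had 5 of 14 arterial genes. Of 10 macrophage genes it had 5, with the macrophage receptor Csf1r at 12.6 CPM, while the complement genes C1qa, C1qb and C1qc were at 0, as in every yolk sac cell. Adgre1 (F4/80), below the read minimum of the list, was read in this cell alone of the yolk sac, at 15 CPM.

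AGM cell 21, the other cell with all 3 genes, had 7 of 10 venous and 8 of 11 lymphatic genes. Aplnr stood at 216.2 CPM, Stab1 at 100.3 CPM, Dab2 at 66.8 CPM and Flt4, the VEGF-C receptor of lymphatic endothelium, at 58.7 CPM. All 13 pan-endothelial genes were read, at a summed 5084 CPM that 2 AGM cells exceeded, with Plvap, a protein of endothelial fenestrae, at 1456 CPM. Kit was at 102 CPM and Runx1 at 79.8 CPM, while Procr and Ptprc were at 0.

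AGM cell 36, with Stab2 and Nr2f2, had 9 of 10 venous, 9 of 11 lymphatic, 4 of 6 sinusoidal and 13 of 14 arterial genes. Its Emcn, a sialomucin of veins and capillaries, reached 2480 CPM, Aplnr 311 CPM, Stab1 104 CPM and Flt4 103 CPM. Pan-endothelial genes summed to 7153 CPM, which 1 AGM cell exceeded. It had reads for 12 of 14 haematopoietic genes, and 3 AGM cells had more, but their sum of 1534 CPM was below that of 44 of the 48 cells. With 6 of 10 macrophage genes and 7 of 9 erythroid genes it also had the most of AGM for both lists. Its 11094 genes detected were the most of AGM too. Runx1 was at 0 and Kit at 15.5 CPM.

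Other Stab2 cells did not carry the sinusoidal genes. AGM cell 30 had 1 of the 6, Stab1 at 0.620 CPM, and cells 43 and 45 had 0 of 6. Cell 30 had the myeloid and stem cell factor Spi1, read in 47 AGM cells, at 839.5 CPM and Csf1r at 245 CPM. It had 2 of 10 macrophage genes and 10 of 13 pan-endothelial genes, both the AGM median. Lymphatic genes numbered 6 of 11 in cell 30, and 2 AGM cells had more. Cell 43 had Prox1, the lymphatic master factor, at 27.7 CPM. It had only 3 of 11 lymphatic genes, the AGM median, and Flt4 and Foxc2 were at 0. Cell 45 had Ptprc at 709 CPM and Kit at 232.2 CPM.

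Nr2f2 was read in cells of mixed make-up. AGM cell 18 had the lowest summed pan-endothelial level of the 48 cells (188.6 CPM) and reads for 6 of 10 mesenchymal genes, with the fibrillar collagen Col3a1 at 150.7 CPM and the pericyte receptor Pdgfrb at 32.2 CPM, its only AGM cell. Cell 25 had 7 of 10 mesenchymal genes, the most of AGM, with the proteoglycan Dcn at 186.8 CPM and Col3a1 at 112 CPM. Cell 9, the highest for Nr2f2, had the lowest haematopoietic sum of the 48 cells (679 CPM) and C1qb at 201.7 CPM. Cells 5, 9 and 36 also had reads for Nr2f1, the paralogue COUP-TFI, at 20.5, 5.13 and 7.74 CPM. Nr2f2 cells 18, 21, 25 and 30 had no Nr2f1 read. AGM cell 8, with 49.5% of the AGM Nr2f1 reads (26.6 CPM), had no Nr2f2 read. Mesenchymal genes were at a summed 0 CPM in cells 5 and 9. COUP-TFII is also known in mesenchyme. What part mesenchymal RNA has in the Nr2f2 reads was not tested.

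Of the 5 Lyve1 cells, macrophage genes numbered 2 of 10 in both AGM cells and 5, 5 and 3 of 10 in yolk sac cells 1, 2 and 6. Yolk sac cells 1 and 2 had the most macrophage genes of their group, and 2 cells had more than cell 6. Cells 1 and 2 also had the most genes detected of their group. By summed macrophage level, 10 of the 16 yolk sac cells lay above cell 1 and 5 above cell 2. In AGM, 39 of the 48 cells lay above cell 8 and 37 above cell 21. Yolk sac cell 6 had the highest summed macrophage level of its group (864 CPM). It had the Fc receptor Fcgr1 at 28.1 CPM and lysozyme, Lyz2, at 835.5 CPM. Lyz2 was read in 14 of the 16 yolk sac cells. Yolk sac cell 1 had Csf1r at 16.1 CPM. C1qa, C1qb, C1qc and Timd4 were at 0 in all 5 Lyve1 cells, but the 4 genes were at 0 in every yolk sac cell. What part macrophage RNA has in the Lyve1 reads was not tested. The summed macrophage level over single cells ran from 0 to 6526 CPM in AGM, 0 to 864 in yolk sac, 0 to 26991 at E12.5 and 1.02 to 2311 at E14.5. The highest of these, E12.5 liver cell 8 (250235 reads, 1011 genes), had C1qc at 7925 CPM, the mannose receptor Mrc1 at 2430 CPM and Csf1r at 1958 CPM. It had 0 reads of Lyve1, Stab2, Nr2f2 and Stab1.

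**Figure D4:**
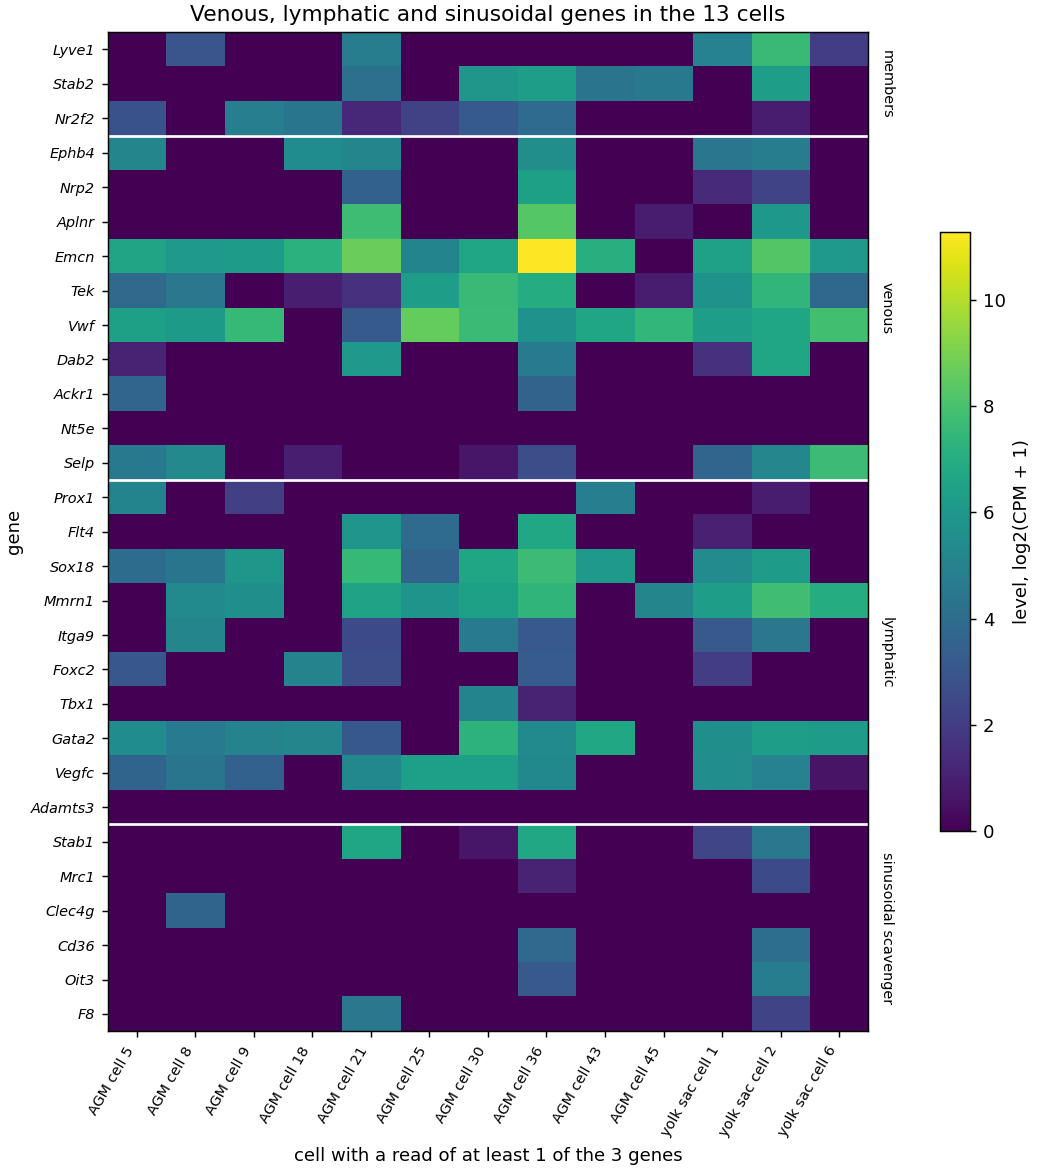
Levels, as log2 of CPM after 1 CPM was added, of the 3 genes and of the other venous, lymphatic and sinusoidal scavenger list genes (rows) in the 13 cells with a read of at least 1 of the 3 (columns). Nrp2, in both the venous and the lymphatic list, is drawn once. AGM cells 8, 21, 30 and 36 and yolk sac cells 1 and 2 have signal in all blocks. Among the 13 cells, Aplnr and Stab1 are each highest in AGM cells 21 and 36 and yolk sac cell 2.

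The other genes of these pathways were counted from fixed lists without the 3 members, for genes with at least 30 reads. Some lists share genes: Tek is venous and pan-endothelial, Nrp2 venous and lymphatic, and Mrc1 sinusoidal and macrophage. The counts of such lists are not independent. For yolk sac against AGM, the lists are set beside all genes. Of these, 21% were at least 2-fold lower and 8.61% at least 2-fold higher, with a median log2 ratio of -0.20. Of 10 venous genes, 5 were at least 2-fold lower and 1 at least 2-fold higher, with a median of -1.04. The glycoprotein Vwf was 233.1 CPM in 39 AGM cells and 39.3 CPM in 5 yolk sac cells (log2 ratio -2.54). The angiopoietin receptor Tek was 72.7 CPM and 21.6 CPM (-1.71), and Aplnr 9.94 CPM and 3.59 CPM (-1.25). The venular chemokine receptor Ackr1 was 1.74 CPM in 4 AGM cells and 0 in yolk sac (-1.46). Selp, the P-selectin of venous endothelium and platelets, was the 1 higher gene, at 42.3 CPM in yolk sac and 15.4 CPM in AGM (1.40). Nrp2, also a lymphatic list gene, was lower too (-2.04). Some of these calls rested on 1 cell. Selp was at 0.75 without yolk sac cell 6, Ackr1 at -0.98 without AGM cell 7 and Nrp2 at 0.13 without AGM cell 41. Aplnr was at -0.34 without AGM cell 21 and -0.47 without AGM cell 36. Tek was at -2.44 without yolk sac cell 2 and Vwf at -3.37 without yolk sac cell 6. Over the omission of each cell in turn, the lower venous genes numbered 4 to 6 and the median ran from -1.23 to -0.58, the latter without AGM cell 36.

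Lymphatic genes other than Lyve1 were mostly lower in yolk sac, the direction opposite to Lyve1. Of 11, 9 were at least 2-fold lower and 0 higher, with a median of -1.63. Prox1 was 2.22 CPM in 6 AGM cells and 0.0448 CPM, a single read, in yolk sac (-1.63). Flt4 was 4.08 CPM in 4 AGM cells and 0.0897 CPM in 1 yolk sac cell (-2.22). The lymphatic valve factor Foxc2 was 6.27 CPM and 0.269 CPM (-2.52), with 63.5% of its AGM reads in cell 3 and a ratio of -1.39 without that cell. The co-receptor Nrp2 was 10.5 CPM and 1.79 CPM (-2.04), with 85.6% in cell 41 and a ratio of 0.13 without it. Sox18 was 56.8 CPM and 10.7 CPM (-2.30), and the lymphatic valve integrin Itga9 was 14.6 CPM and 2.78 CPM (-2.05, and -1.24 without AGM cell 46). Adamts3 (-1.03) was at 0 without AGM cell 17, and Tbx1 (-1.47) was at -0.94 without AGM cell 30. Leaving out each cell in turn gave 8 or 9 lower lymphatic genes and 0 higher, with medians from -1.99 to -1.49. That count leaves out 1 cell at a time, and the calls of Nrp2, Adamts3 and Tbx1 each rested on a different cell. Mmrn1, a matrix protein of lymphatics and platelets, was near level at 82.2 CPM and 78.0 CPM, and Gata2, shared with stem cells, at 60.1 CPM and 66.6 CPM. Podoplanin (Pdpn) had 1 read in all cells and was not used.

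Sinusoidal scavenger genes were split. Of 6, 2 were at least 2-fold lower in yolk sac and 1 higher, with a median of -0.14. Over all genes the shares were 21% lower and 8.61% higher. Stab1, the nearest relative of Stab2, was 9.67 CPM in AGM and 1.66 CPM in yolk sac (-2.00), with 58.5% of the AGM reads in cell 3 and 75.7% of the yolk sac reads in cell 2. Without AGM cell 3 the Stab1 ratio was -0.94, short of 2-fold. The lectin Clec4g was 3.75 CPM in 5 AGM cells and 0 in yolk sac (-2.25). Oit3 was 9.95 CPM in yolk sac and 0.116 CPM in AGM (3.29), with 85.6% of the yolk sac reads in cell 15, a cell without the 3 genes, and a ratio of 1.18 without it. Cd36 was read only in AGM cell 36 and yolk sac cell 2.

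Of 5 other genes of hyaluronan binding and breakdown, 1 was at least 2-fold higher and 1 lower, with a median of 0.73. The lower share was near that of all genes (21%), and 8.61% of all genes were higher. The receptor Cd44 was 117 CPM in 14 yolk sac cells and 67.2 CPM in 37 AGM cells (0.79), and the hyaluronidase Hyal2 was 115 CPM and 68.5 CPM (0.73). The 2 genes past 2-fold were read in fewer cells. Hyal1 was 0.852 CPM in 2 yolk sac cells and 6.44 CPM in 9 AGM cells (-2.01). Tlr4, which can sense hyaluronan fragments, was 2.73 CPM in 2 and 0.863 CPM in 3 cells (1.00), and was at -0.64 without yolk sac cell 7. The median was 0.02 without that cell.

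Among the COUP-TF genes and their partners, 7 of 10 were at least 2-fold lower in yolk sac and 0 higher, with a median of -1.49. Hey1, Hey2, Sox17 and Nrp1 are also in the arterial list below, so the counts of these 2 lists are not independent. The paralogue Nr2f1 was 1.58 CPM in 5 AGM cells and 0 in yolk sac (-1.37, and -0.86 without AGM cell 8). The arterial repressors Hey1 and Hey2, Notch targets that COUP-TFII is known to oppose, were also lower (-2.23 and -2.32), as were Sox17 (-2.92), Sox7 (-2.78) and the arterial co-receptor Nrp1 (-1.62). Notch1 was near level at 10.5 CPM in AGM and 12.8 CPM in yolk sac. AGM cell 3, a cell without the 3 members, held 78.8% of the AGM reads of Hey2, 62.9% of Sox7 and 50.9% of Nrp1. Without it Hey2 was at -0.90 and Nrp1 at -0.65, both short of 2-fold, and Sox7 at -1.47. The list then had 5 lower genes and a median of -1.09. Without yolk sac cell 1, Hey1 was at -3.09 and Sox17 at -3.67.

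Markers of other cell types were counted in the same way, again beside 21% of all genes lower in yolk sac and 8.61% higher. In yolk sac against AGM, 9 of 14 arterial genes were at least 2-fold lower and 0 higher (median -1.70), led by the Notch ligand Dll4 (-3.23, and -4.06 without yolk sac cell 1), and 7 of 13 pan-endothelial genes were lower and 0 higher (median -1.01). Single-cell pan-endothelial sums ran from 188.6 to 19410.4 CPM in AGM, 105 to 2870.1 in yolk sac, 7.99 to 3355 at E12.5 and 411 to 2237 at E14.5. Without AGM cell 3 the lower genes were 5 arterial and 5 pan-endothelial, with medians of -0.64 and -0.88. Haematopoietic genes had a median of 0.05, with 1 of 14 higher and 2 lower, and erythroid genes 0.16, with 3 of 9 higher and 2 lower. Without yolk sac cell 12 neither list had a higher gene. Macrophage genes had 1 of 10 higher and 2 lower (-0.48), and mesenchymal genes 0 higher and 4 of 10 lower (-0.53). The macrophage and haematopoietic counts were near the shares of all genes. Without yolk sac cell 6 no macrophage gene was higher, without AGM cell 9 there was 1 lower, and mesenchymal genes numbered 3 to 5 lower over the omission of each cell. Of 4 hepatoblast-type genes, which yolk sac endoderm also expresses, all 4 were higher (2.46), led by Afp at 48.2 CPM in yolk sac and 3.98 CPM in AGM. Yolk sac cell 3, a cell without the 3 members, held 86.2% of the Afp and 100% of the Ttr reads of its group. Without it 1 of the 4 was past 2-fold, and the median was 0.85. The pan-endothelial median thus had the sign of the Nr2f2 ratio and the opposite sign to that of Lyve1, and its part in either was not tested.

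**Figure D5:**
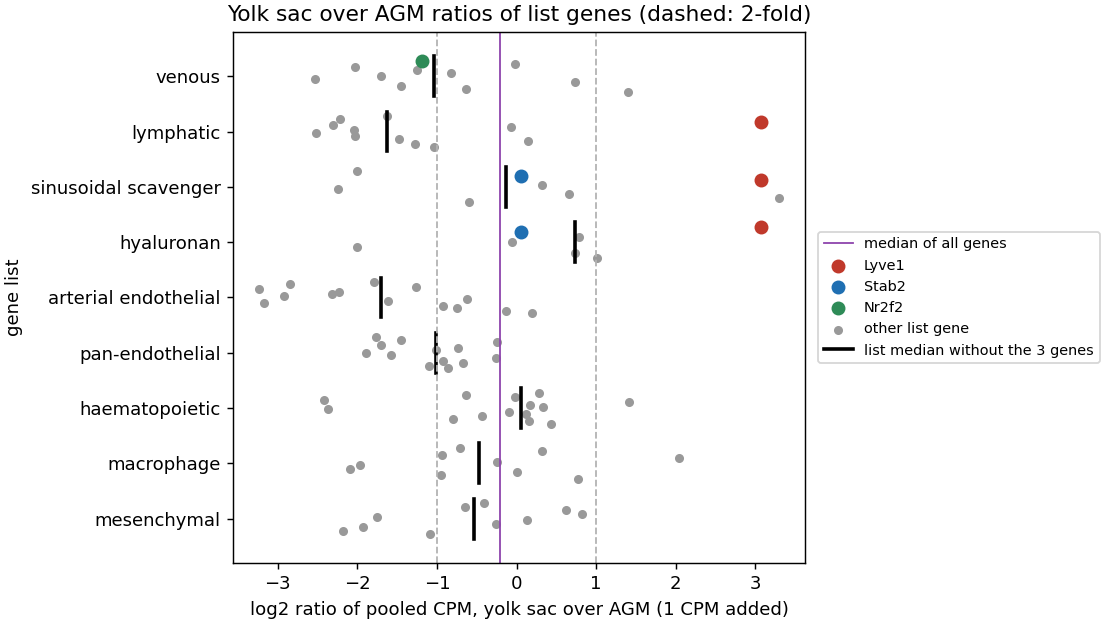
Log2 ratio of pooled CPM, yolk sac over AGM with 1 CPM added, for list genes (points), with each list's median without the 3 genes (black bar), the median of all genes (purple line) and the 2-fold limits (dashed). Lyve1 at 3.07 lies to the right of every other lymphatic gene, and Nr2f2 at -1.19 lies near the venous median of -1.04.

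In E12.5 liver against AGM, the lists are set beside 26% of all genes lower, 15.6% higher and a median of -0.20. Venous genes had 0 higher and 7 of 10 at least 2-fold lower (median -1.65), lymphatic genes 1 higher and 6 of 11 lower (-1.03), and sinusoidal genes 1 higher and 2 of 6 lower (-0.57), a share of lower genes near that of all genes. The 1 higher sinusoidal gene, Mrc1, was read in liver cell 8 only, and the 1 higher lymphatic gene, Tbx1, was past 2-fold the other way (-1.47) without liver cell 2. COUP-TF genes and partners had 1 higher and 7 of 10 lower (-1.72), and hyaluronan genes 0 of 5 in either direction (-0.10), or 2 lower without liver cell 7. Emcn, at 181.4 CPM in E12.5 liver and 186.98 CPM in AGM, and Mmrn1, at 91.4 CPM and 82.2 CPM, were near level. Vwf was 25.8 CPM at E12.5, in 1 cell. Aplnr, Flt4, Foxc2, Dab2 and Nr2f1 had 0 reads at either liver age. Prox1 had 0 at E12.5 and 0.923 CPM in 1 cell at E14.5, and Stab1 had 0 at E12.5 and 7.04 CPM in 1 cell at E14.5.

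The same comparison gave 0 higher and 10 of 14 lower for arterial genes (-2.33), 0 and 9 of 13 for pan-endothelial genes (-2.07), and 0 and 8 of 10 for mesenchymal genes (-1.75). Hepatoblast genes had 0 higher and 2 of 4 lower (-0.79), or 1 without AGM cell 29. Macrophage genes had 6 of 10 higher and 0 lower (2.53), but liver cell 8 held 100% of the Mrc1, C1qa and C1qc reads of its group, 90.7% of C1qb and 82.8% of Fcgr1. Without that cell 3 were higher, 2 were lower and the median was -0.01. Erythroid genes had 7 of 9 higher and 0 lower (3.50), and haematopoietic genes had 2 of 14 higher and 1 lower (0.37), with 1 to 3 higher over the omission of each cell. The E12.5 zeros of the 3 genes thus stood beside negative medians in every endothelial list, whose part in them was not tested.

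Genes with the most similar pattern were found by Spearman correlation over cells, as a description without a test, since the cells share depth and the genes are mostly at 0. Over all 96 cells, with 10905 genes compared, Nr2f2 was nearest to the homeobox zinc-finger gene Tshz2 (0.78), then Amotl1 (0.73), the developmental factor Sox11 (0.69), Cttnbp2nl (0.65) and the heparan sulfatase Sulf2 (0.63). Within the 48 AGM cells it was nearest to the secreted protein gene Cthrc1 (0.83), Tshz2 (0.79), Sox11 (0.76), Trim2 (0.75) and Crmp1 (0.74). Tshz2 and Sox11 stood in both lists, which are not independent, since the AGM cells are part of the 96 and hold 7 of the 8 Nr2f2 cells.

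For Stab2 the nearest genes over all cells were Simc1 (0.56), Mapre3 (0.55), the endothelin receptor Ednrb (0.49), Gm37899 (0.47) and Rbm45 (0.46), and its correlation with Nr2f2 was 0.54. Within AGM they were Msh5 (0.58), Tollip (0.57), Gpsm2 (0.56), Sema6b (0.54) and Simc1 (0.53). For Lyve1, read in too few AGM cells for that comparison, they were Arhgef15 (0.66), S100a5 (0.57), the platelet chemokine Ppbp (0.55), Slc5a11 (0.53) and Ryr2 (0.52). Arhgef15 was read in 11 cells, among them all 5 Lyve1 cells. Lyve1 had a correlation of 0.33 with Stab2 and 0.25 with Nr2f2.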

How the data were processed

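Single sorted cells were sequenced after SMART-Seq cDNA synthesis, transposome tagging and 12 PCR cycles, per the labels' protocols. The authors deposited whole-number read counts per gene, 1 column per cell. FastQC, Trimmomatic 0.36, STAR, HTSeq and mm10 are named in the submitters' processing notes, and the annotation release and strand setting are not given in the sources used here. No molecular identifiers are named, so counts are reads.

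The 19949 rows were summed by symbol to 19836 genes (113 repeated a symbol), and all columns were mapped (0 left out). No cell was removed and no doublet caller was run, since wells were sorted to hold 1 cell. With Python 3.11.15, pandas 2.3.3, NumPy 2.4.6 and SciPy 1.17.1, reads were summed per group and scaled to CPM, and log2 ratios were taken after adding 1 CPM, which understates changes of low genes. The ratio calculation was tested on simulated counts. The labels name no animal, so no test was made.

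The 3 genes and all lists (venous, lymphatic, sinusoidal scavenger, hyaluronan, COUP-TF and partners, arterial, pan-endothelial, macrophage, mesenchymal, hepatoblast, haematopoietic, erythroid) were chosen with earlier results of these data known. List genes needed 30 reads. Ccl21a, Fcgr2b, Dnase1l3, Gata4, Cd209b, Has2, Has3, Cemip, Cemip2, Cd163, Alb, Apob and Serpina1a were not analysed here. Genes named were the members, the 5 nearest by Spearman correlation among genes read in at least 10 cells (5 within AGM), up to 6 per list past 2-fold, and list genes describing cells that hold a member. Emcn, Mmrn1, Gata2, Notch1, Cd44, Hyal2, Procr and Adgre1 were added after their values were seen, as were Adamts3 and Tbx1 for yolk sac against AGM.

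Alternatives were the mean of each cell's CPM, median-of-ratios scaling, thinning to 690000 reads, no read minimum, 10 CPM added, a 10 CPM limit for detection, and omission of the deepest or of each cell. A floor of 3 reads, AGM cells 1 to 16 only, cells with at least 7000 genes, and the omission of each cell for lists and list genes, and of the top AGM cell for bounds, were chosen after seeing the data.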

Additional observations from a re-analysis of the deposited data

How the results depend on the processing

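Median-of-ratios scaling, averaging CPM over cells, thinning and omission of the deepest cell of each group moved none of the 6 log2 ratios by more than their counting error. With 10 CPM added, yolk sac over AGM was 1.16 for Lyve1 and -0.18 for Nr2f2, and E12.5 liver over AGM was -0.11 for Lyve1, -0.50 for Stab2 and -0.19 for Nr2f2. With no CPM added but a floor of 3 reads, yolk sac over AGM was 4.13 for Lyve1 and -3.36 for Nr2f2, and E12.5 over AGM was -2.37, -4.71 and -3.13 in the same gene order as above. A larger addition shrinks ratios of genes at these levels by construction. With AGM cells 1 to 16 only, which hold 0 Stab2 reads, the Stab2 ratios were 2.42 (yolk sac over AGM) and 0 (E12.5 over AGM). In cells with at least 7000 genes, yolk sac over AGM was 0.84 for Stab2 and -1.49 for Nr2f2.

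Leaving out every cell in turn, yolk sac over AGM ranged from 1.19 to 3.66 for Lyve1, from -2.36 to 0.60 for Stab2 and from -1.25 to -0.97 for Nr2f2. E12.5 over AGM ranged from -0.88 to -0.27, from -2.40 to -1.82 and from -1.28 to -1.03. The low Lyve1 and Stab2 values came without yolk sac cell 2, and Stab2 then changed direction. The share of yolk sac cells with Nr2f2 went from 6.25% to 0 at a 10 CPM limit and after thinning, which left out 5 AGM and 4 liver cells. Without a read minimum, genes past 2-fold were 22.9% in place of 29.6% in yolk sac over AGM and 32.2% in place of 41.7% in E12.5 over AGM. E14.5 over E12.5 ratios of the 3 genes had no value under any setting, since both groups were at 0. No paired analysis was possible because cell numbers only name wells and no result comes from a test. The number of cells limits any statement on shares in groups of 16, where 0 cells allow up to 18.75% with a limit of 3 cells.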
